A study of Mus musculus with 6 samples.

Results

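Atf4, Atf5, Ddit3, Trib3, Chac1, Asns, Psat1, Phgdh, Gdf15 and Fgf21, the transcription factor ATF4 with its stress and serine-synthesis targets and 2 stress hormones, were described in brown adipose tissue, a fat depot that makes heat. They were picked by symbol, by a rule that uses no measured value, but with earlier results of these data known. All 10 were found among the 24016 usable rows of the deposited gene table, and all 10 were among the 10864 genes tested. PolyA RNA was sequenced from flash-frozen brown fat of mice of strain C57BL6, with 3 libraries of genotype WT and 3 of genotype AdIl17rc KO. The title of the series places the loss of IL-17RC, a receptor chain for IL-17, in adipocytes. The sources used here give no Cre driver, age, sex or housing temperature. They also do not say whether each library is a different animal, so p-values measure the spread between libraries, which may be technical. Hereafter AdIl17rc KO is shortened to KO, and values listed by library run in the order 1, 2, 3.

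ATF4 is the effector of the integrated stress response. Kinases that sense amino acid shortage, unfolded protein in the endoplasmic reticulum, double-stranded RNA or haem shortage phosphorylate the initiation factor eIF2alpha, which lowers protein synthesis while translation of Atf4 mRNA rises. ATF4 then raises transcription of genes for amino acid supply, redox balance and, under prolonged stress, cell death, so its own mRNA level is only a partial readout of its activity. In brown fat, mitochondrial stress is known to engage this pathway and to release the hormones FGF21 and GDF15.

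ATF4 binds composite C/EBP-ATF elements. The promoter windows of the members were searched for the letters TGATGNAA and for the variant TGGTGNAA, on both strands, with N standing for any base. Windows ran from 250 bases before to 50 bases after each start annotated by RefSeq on mouse build GRCm38.p6, which differs from the build mm9 named for the expression table. All 10 members had at least 1 window. The matches before the start are given here, 5′ to 3′ along the strand of the gene, because they hold letters that ATF4 is known to bind. Capitals mark the match.
Asns: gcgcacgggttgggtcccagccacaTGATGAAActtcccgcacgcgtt
Chac1: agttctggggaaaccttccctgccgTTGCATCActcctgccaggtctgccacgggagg
Fgf21: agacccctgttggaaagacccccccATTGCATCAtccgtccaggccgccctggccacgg
Trib3: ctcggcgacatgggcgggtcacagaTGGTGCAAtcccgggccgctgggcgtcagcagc
Psat1: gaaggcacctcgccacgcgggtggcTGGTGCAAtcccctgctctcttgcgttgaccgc
The Asns stretch lies at chr6:7693210-7693257 on the minus strand, with its match at positions -23 to -16 from the start. The Chac1 stretch is at chr2:119351024-119351081 on the plus strand and holds the reverse complement, as does Fgf21 at chr7:45615597-45615655 on the minus strand. In Fgf21 the match extends to the full 9-letter TGATGCAAT, read on the opposite strand. Trib3 at chr2:152344061-152344118 and Psat1 at chr19:15925163-15925220, both on the minus strand, hold the variant. Trib3 also holds TGATGNAA on the opposite strand within the 50 bases after the start.

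TGATGNAA was found in windows of 4 of the 10 members and in 3.97% of 32851 RefSeq windows, and in 2.78% of the 8158 tested genes with a window. TGGTGNAA was found for 2 members, in 3.23% of all windows and in 3.04% of the tested genes with a window. TGATGCAAT was found for 1 member, in 0.192% of all windows and in 0.135% of those tested genes. The 2 shorter motifs differ at 1 letter and cannot match the same letters, whereas every TGATGCAAT is also a TGATGNAA. A match is a description of letters, and windows of Atf4, Atf5, Ddit3, Phgdh and Gdf15 held none of the 3 motifs.

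The values are FPKM as the authors deposited them, which adjusts fragments for transcript length and library size, so levels can be compared between genes. Depth, judged from the step that 1 fragment makes in low genes, was about 31.6 to 39.0 megafragments per library. The libraries carried brown fat identity, since the 9 brown adipocyte markers, Ucp1 among them, summed to between 6295 and 7998 FPKM in each. T cell, B cell and liver markers summed to at most 2.56, 1.118 and 0.159 FPKM. Endothelial markers (6 of 6 lower in KO on both scales) summed to 169 to 303 FPKM in WT and 112 to 175 in KO, and fibroblast markers (6 of 6 lower as deposited) to 62.0 to 127 and 36.1 to 49.8, and the part of these cells in the results was not tested. Erythroid markers (4 of 4 lower on both scales) summed to 2116, 1224 and 1698 FPKM in WT and to 1321, 762 and 1541 FPKM in KO, and their part was not tested either. Muscle transcripts were uneven: 15 markers of skeletal muscle summed to 41.5, 51.5 and 87.1 FPKM in WT and to 422, 698 and 46.1 FPKM in KO. The targeted gene, Il17rc, was at 3.21, 2.28 and 2.02 FPKM in WT and at 1.32, 0.619 and 0.530 FPKM in KO, lower in every KO library than in any WT library, with a log2 fold change of -1.21 ± 0.25 (SE) that did not pass (limma adjusted p = 0.151). As deposited, 87.6% of tested genes had a lower mean log2 value in KO, and the log2 fold change of the median gene was -0.29. Each difference is therefore also given after median-of-ratios scaling ("scaled"), which divides each library by 1 factor so that the median gene is level, with factors of 1.33, 1.03 and 1.05 in WT and 1.01, 0.852 and 0.830 in KO.

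None of the 10 members passed the test over all genes. As deposited all 10 had a negative log2 fold change, beside 87.6% of all tested genes, and after scaling 6 were negative and 4 positive, beside 50.1% negative. The 4 that turned sign were Atf4, Ddit3, Psat1 and Phgdh. Gdf15, Trib3, Chac1 and Fgf21 had the most negative log2 fold changes on both scales, and WT library 1 was the highest library for each of these on both scales. With limma, 0 of 10 members had an adjusted p under 0.05, where 0.0184% of all tested genes (2 of 10864) did on either scale and 0.0092% (1 gene) was lower as deposited. At an unadjusted p under 0.05, 2 members (Gdf15 and Trib3) were lower as deposited, beside 24.8% of tested genes, and 1 (Gdf15) was lower after scaling, beside 8.72% (8.89% higher). With scaling plus a correction for GC content and length, 7 of 10 were negative, beside 51.1% of genes. The groups did not overlap, with KO lower, for 3 members as deposited (Trib3, Asns and Fgf21), beside 31.7% of tested genes (1.25% with KO higher), and for 0 members after scaling, beside 12.5%. The median over the members was a log2 fold change of -0.45, and of -0.12 scaled, where that of all tested genes was -0.29 and -0.00072. In bulk tissue, fewer cells of a type and less RNA per cell cannot be told apart.

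**Figure D1:**
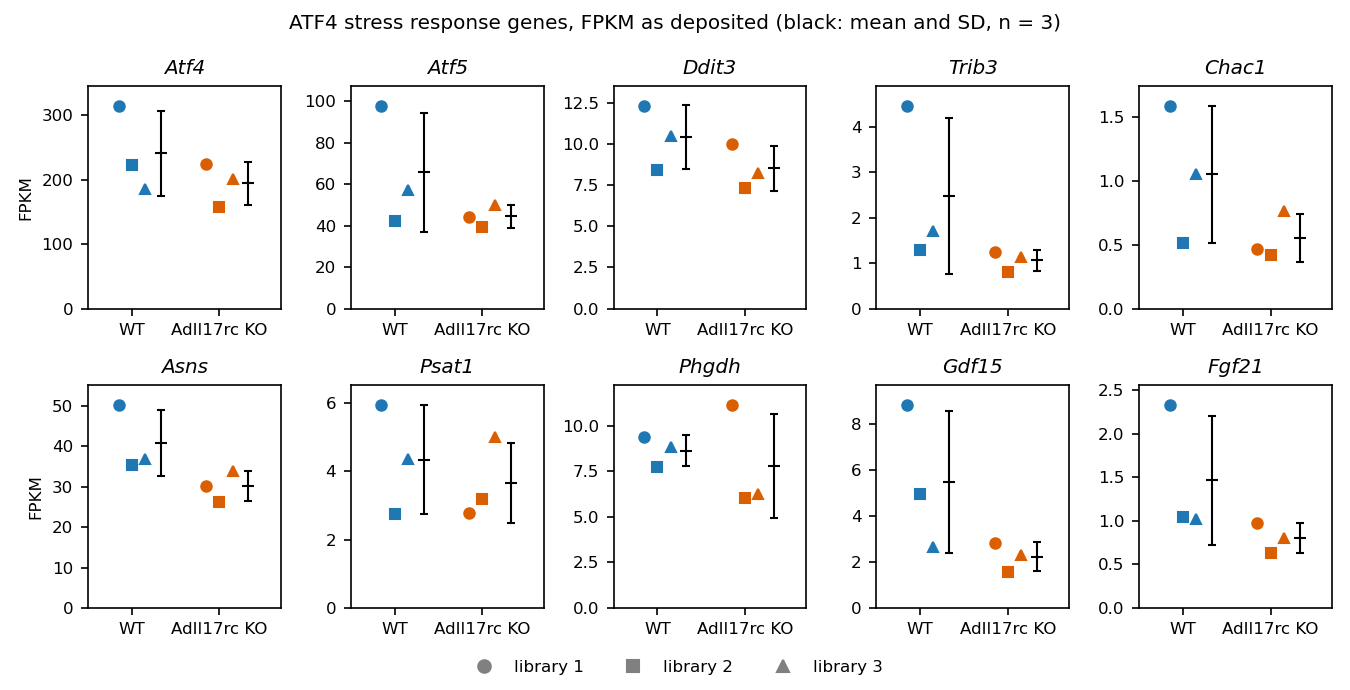
FPKM of each of the 10 genes in the 3 WT (blue) and 3 AdIl17rc KO (orange) libraries, with symbol shape giving the library number and the black bar the mean and SD of each group (n = 3); each vertical axis starts at 0. WT library 1 is the highest library for 9 of the 10 genes, and for Phgdh the highest is KO library 1.

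The members spanned a wide range of levels. Over the 6 libraries Atf4 averaged 218 FPKM, at the 98.0th percentile of mean FPKM among tested genes. Atf5 averaged 55.1 FPKM and Asns 35.4 FPKM. Ddit3 (9.46 FPKM) and Phgdh (8.20 FPKM) came next, then Psat1 (4.0 FPKM) and Gdf15 (3.85 FPKM). Trib3 (1.78 FPKM), Fgf21 (1.13 FPKM) and Chac1 (0.801 FPKM) were the lowest. The library ranges separated Atf4 from Atf5, Asns from Ddit3 and Phgdh from Psat1, while the other neighbours in this order overlapped. The lowest genes rested on few fragments: about 19.8 to 73.8 per library for Fgf21 and 22.9 to 86.5 for Chac1, against 10596 to 21131 for Atf4, as approximated from depth and the longest annotated transcript.

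Atf4 itself was at 314, 223 and 186 FPKM in WT against 224, 158 and 201 FPKM in KO. The groups overlapped, with WT library 1 alone above every KO library. The mean was 241 ± 66 FPKM (SD, n = 3) in WT and 194 ± 34 in KO, a log2 fold change of -0.29 ± 0.22 (SE; adjusted p by limma = 0.381). This equalled the median gene to 2 decimals, and after scaling the log2 fold change was 0.05 ± 0.15 (adjusted p = 0.886). As deposited it was -0.08 without WT library 1, -0.46 without WT library 3 and -0.15 without KO library 2. Scaled FPKM was 210 ± 30 in WT and 216 ± 29 in KO, so the means differed by less than the SD of either group.

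Atf5, a related bZIP factor linked to the mitochondrial unfolded protein response, was at 97.5, 42.2 and 57.4 FPKM in WT, and in KO at 44.0, 39.2 and 50.2 FPKM. Only WT libraries 1 and 3 lay above all KO libraries. The log2 fold change was -0.48 ± 0.28 (SE; adjusted p by limma = 0.275) and -0.15 ± 0.22 scaled (0.735). Without WT library 1 it was -0.15 as deposited and 0.06 scaled, where the sign turned, and without WT library 2 it was -0.75 and -0.35. The span of Atf5 overlaps that of Nup62 on the opposite strand (13.5, 8.68 and 8.48 FPKM in WT and 8.98, 6.80 and 7.96 FPKM in KO). Reads from any stretch that both genes share cannot be told apart without a strand setting, and whether their exons overlap was not examined.

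Ddit3, which encodes CHOP, a factor of the prolonged stress response, was at 12.3, 8.41 and 10.5 FPKM in WT and at 10.02, 7.30 and 8.22 FPKM in KO. The groups overlapped. Its log2 fold change was -0.27 ± 0.19 (SE; adjusted p by limma = 0.337) and 0.05 ± 0.11 scaled (0.84). Scaled values varied little, by 1.22-fold between the lowest and highest of the 6 libraries, the narrowest range among the members. A correction for GC content and transcript length, added to scaling, gave -0.19 ± 0.11, where the sign turned again (limma adjusted p = 0.492). As deposited the value was -0.15 without WT library 1, -0.41 without WT library 2 and -0.17 without KO library 2. Ddit3 overlaps Mars, a tRNA synthetase gene, on the opposite strand, with the same limit on assigning reads.

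Trib3, a pseudokinase induced by ATF4 and CHOP that restrains ATF4 in return, was at 4.46, 1.30 and 1.7 FPKM in WT, and in KO at 1.26, 0.815 and 1.13 FPKM. The groups did not overlap as deposited, but WT library 2 and KO library 1 differed little. After scaling the groups overlapped, since KO library 3 (1.37) lay above WT library 2 (1.27). The mean was 2.49 ± 1.72 FPKM (SD, n = 3) in WT and 1.07 ± 0.23 in KO. The log2 fold change was -0.79 ± 0.35 (SE; adjusted p by limma = 0.193) and -0.54 ± 0.28 scaled (0.352). WT library 1 was 2.97 times the mean of the other WT libraries (2.32 times scaled). Without it the fold change on the log2 scale was -0.35 and, scaled, -0.20.

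Chac1, which degrades glutathione and is a sensitive ATF4 target, was at 1.58, 0.517 and 1.05 FPKM in WT and at 0.468, 0.421 and 0.767 FPKM in KO. WT library 2 lay among the KO libraries. Its log2 fold change was -0.51 ± 0.27 (SE; adjusted p by limma = 0.236) and -0.30 ± 0.24 scaled (0.52). Without WT library 1 it was -0.27 as deposited and -0.14 scaled, and without WT library 2 it was -0.79 and -0.52. The pseudocount of 0.5 added before taking log2 is large beside these levels, and with 0.1 in its place the deposited value was -0.74.

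On both scales the amino acid enzymes Asns, Phgdh and Psat1 had smaller log2 fold changes in size than Gdf15, Trib3, Chac1, Fgf21 and Atf5. Asns as deposited, and all of these enzymes scaled, had larger ones than Atf4 and Ddit3. Asns, which makes asparagine from aspartate, was at 50.1, 35.5 and 36.7 FPKM in WT and at 30.3, 26.3 and 33.8 FPKM in KO. Every WT library was above every KO library as deposited, with a log2 fold change of -0.42 ± 0.18 (SE; adjusted p by limma = 0.194). Scaled FPKM was 35.7 ± 1.6 (SD, n = 3) in WT and 33.8 ± 6.0 in KO, so the separation was lost, with a log2 fold change of -0.09 ± 0.13 (0.732) and KO library 3 now the highest. A correction for GC and length on top gave -0.22 ± 0.11 (0.436). The deposited value was -0.26 without WT library 1.

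Phgdh and Psat1 catalyse the opening steps of serine synthesis from a glycolytic intermediate. Phgdh was at 9.35, 7.71 and 8.82 FPKM in WT and at 11.1, 6.0 and 6.24 FPKM in KO. KO library 1 was the highest of the 6 libraries and the other KO libraries the lowest as deposited. Psat1 was at 5.93, 2.75 and 4.36 FPKM in WT and at 2.77, 3.20 and 5.0 FPKM in KO, with the groups overlapping and a different KO library on top. A processed pseudogene, Gm3329, overlaps Psat1 on the opposite strand, with the same limit on assigning reads. The log2 fold changes were -0.19 ± 0.23 for Phgdh (SE; adjusted p by limma = 0.573) and -0.20 ± 0.28 for Psat1 (0.617). Both turned positive after scaling, at 0.12 ± 0.17 (0.71) and 0.10 ± 0.28 (0.868). Leaving out 1 library turned the sign of each after scaling, and that of Psat1 as deposited. Without KO library 1 Phgdh was at -0.46 as deposited (limma adjusted p = 0.104) and at -0.06 scaled, and without KO library 2 it was at -0.04 as deposited and 0.24 scaled. Psat1 ranged from -0.46 without WT library 2 to 0.03 without WT library 1 as deposited, and from -0.17 without KO library 3 to 0.33 without KO library 1 scaled. The serine enzymes therefore showed no shared order of the libraries.

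Gdf15, a TGF-beta superfamily hormone that curbs appetite through the hindbrain receptor GFRAL, had the most negative log2 fold change of the set. It was at 8.81, 4.98 and 2.67 FPKM in WT and at 2.81, 1.56 and 2.30 FPKM in KO. The groups overlapped by 1 pair, since WT library 3 lay below KO library 1. The mean was 5.48 ± 3.10 FPKM (SD, n = 3) in WT and 2.22 ± 0.63 in KO, and the WT libraries alone spanned most of the range. Its log2 fold change was -1.03 ± 0.36 (SE; adjusted p by limma = 0.165) and -0.74 ± 0.31 scaled (0.28). Of the tested genes, 1.02% lay further below 0 as deposited and 0.966% did so scaled. Without WT library 1 the value was -0.64 as deposited and -0.46 scaled, and without WT library 3 it was -1.42 and -1.08. Gdf15 passed (limma adjusted p = 0.0401) when the FPKM of every library were set to the same sum, a sum to which the small RNA feature Mir6236 gave 146487 of 383558 FPKM in KO library 2. Macrophages can also make GDF15, and their 8 markers summed to 124, 85.5 and 51.3 FPKM in WT and to 84.5, 76.0 and 86.1 FPKM in KO, with 5 of 8 higher in KO as deposited and 6 of 8 scaled. No macrophage marker was at 0 in all libraries, and the part of these cells in the Gdf15 values was not tested.

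Fgf21, a hormone of fasting liver and stimulated brown fat, was at 2.32, 1.05 and 1.02 FPKM in WT and at 0.979, 0.628 and 0.806 FPKM in KO. The groups did not overlap as deposited, by a narrow margin between WT library 3 and KO library 1, and they overlapped after scaling. The log2 fold change was -0.54 ± 0.26 (SE; adjusted p by limma = 0.213) and -0.30 ± 0.19 scaled (0.417). The pseudocount of 0.5 added before taking log2 is large beside these levels, and with 0.1 in its place the deposited value was -0.71. The ratio of mean FPKM, KO over WT, was 0.55 as deposited and 0.716 scaled. That ratio also reflects WT library 1, which was 2.25 times the mean of the other WT libraries as deposited. Without WT library 1 the difference was -0.24 in log2 units, and -0.10 scaled.

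**Figure D2:**
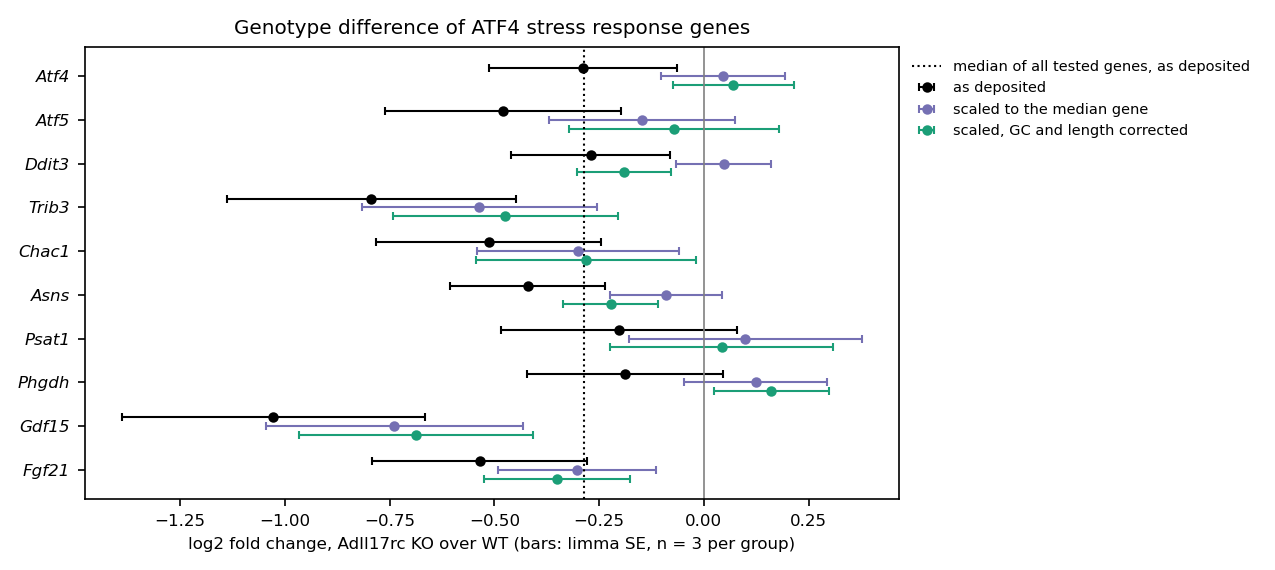
Log2 fold change (AdIl17rc KO over WT, horizontal axis) of each gene as deposited, scaled, and scaled with GC and length correction, with bars giving the limma SE (n = 3 per group); the dotted line is the median of all tested genes as deposited. Gdf15 (-1.03, -0.74 and -0.69) and Trib3 (-0.79, -0.54 and -0.47) lie farthest to the left in all 3 fits, and Atf4 lies on the dotted line as deposited.

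Most members shared their highest and lowest library as deposited, and fewer did after scaling. As deposited, WT library 1 was the highest for 9 of 10 members, where it was the highest for 72.5% of tested genes, and KO library 2 was the lowest for 9 of 10, beside 30.7%. After scaling WT library 1 was the highest for 5 of 10 (Atf5, Trib3, Chac1, Gdf15 and Fgf21), beside 22.3%, and KO library 2 the lowest for 3 of 10 (Trib3, Gdf15 and Fgf21), beside 11.7%. The median member stood 0.28 log2 units above its WT mean in WT library 1 after scaling. It stood at -0.16 and -0.02 in WT libraries 2 and 3 and at -0.29, -0.23 and 0.09 in KO. KO libraries 1 and 2, where muscle transcripts were high, were thus the lower KO libraries for the median member. Without them the scaled log2 fold changes, resting on KO library 3 alone, were -0.58 for Gdf15, -0.38 for Trib3, -0.22 for Fgf21, 0.06 for Chac1, 0.19 for Asns, 0.22 for Atf4 and 0.65 for Psat1. With a single KO library the WT libraries alone supply the spread, so these are given as values.

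**Figure D3:**
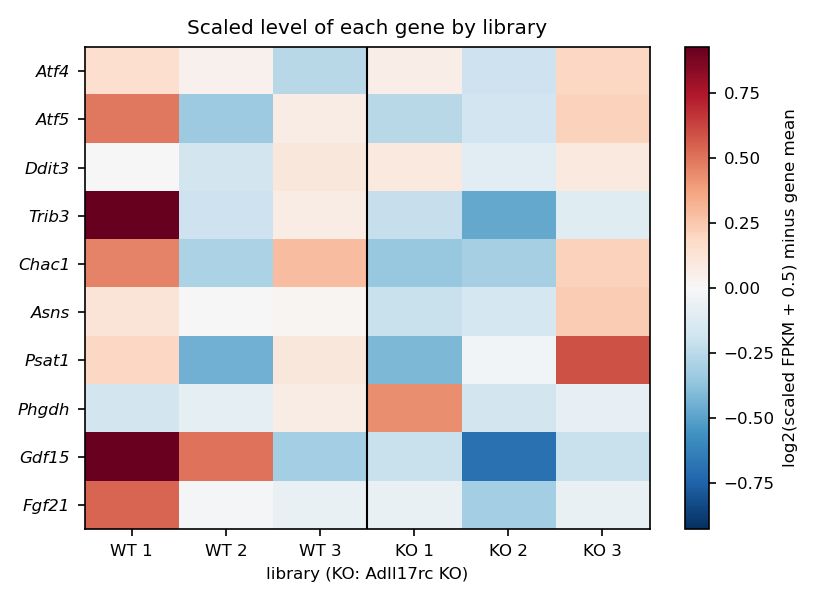
Scaled level of each gene in each library, as log2(scaled FPKM + 0.5) minus the gene's mean over the 6 libraries (red above, blue below), with the black line between WT and AdIl17rc KO. WT library 1 is the highest library for Trib3, Gdf15, Fgf21, Atf5 and Chac1, whereas Psat1 is highest in KO library 3 and Phgdh in KO library 1.

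Chac1, with a mean under 1 FPKM, was left out of the comparison of levels with Atf4, and the genes most like Atf4 after scaling included none of the other 8 members compared. Over the 6 libraries and 8998 genes compared, Pearson's r was 0.98 for Pabpn1, a nuclear poly(A)-binding protein, and 0.98 for Ifi30, a lysosomal thiol reductase. It was 0.97 for Tyrobp, a signalling adaptor of myeloid cells, and 0.96 for Taf10, a subunit of TFIID. Among those 8 members, Gdf15 was the most like Atf4 with r = 0.58 and rank 717, followed by Fgf21 (0.54) and Asns (0.50), and Phgdh was at -0.02. These values are a description over 6 libraries that share 1 set of scaling factors.

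Of 33 other genes known as ATF4 targets, 25 were tested. As deposited 24 had lower and 1 higher log2 values in KO (median log2 fold change -0.53), beside 87.6% of all tested genes lower. After scaling 22 were lower and 3 higher (median -0.22), beside 50.1% lower. With the GC and length correction added, 20 were lower (median -0.15), beside 51.1% of genes. The median was -0.31 without WT library 1 as deposited and -0.14 scaled, and without WT library 3 it was -0.13 scaled. By limma 0 passed over all genes on either scale. At an unadjusted p under 0.05, 12 were lower and 0 higher as deposited, beside 24.8% and 1.01% of all tested genes. Scaled, 3 were lower and 1 higher, beside 8.72% and 8.89%. The 3 were Eif4ebp1, Mknk2 and Sesn2, and the 1 was the amino acid transporter gene Slc1a4, which with Sesn2 was named after its values were seen. Eif4ebp1, a repressor of cap-dependent translation, was at 89.6, 61.7 and 59.4 FPKM in WT and at 44.9, 32.4 and 28.3 FPKM in KO. Every KO library lay below every WT library as deposited, beside 31.7% of tested genes. Most genes named in the lists were picked for the smallest p, so separation of their groups adds little. The log2 fold change of Eif4ebp1 was -0.99 ± 0.23 (SE; adjusted p by limma = 0.151) and -0.66 ± 0.13 scaled (0.224). Mknk2, a kinase of the cap-binding factor eIF4E, was at 127, 93.2 and 73.8 FPKM in WT and at 60.0, 45.4 and 33.6 FPKM in KO, again without overlap. Its log2 fold change was -1.08 ± 0.26 (limma adjusted p = 0.151) and -0.75 ± 0.18 scaled (0.235). Vegfa, the vascular growth factor, was at 180 ± 30 FPKM (SD, n = 3) in WT and 118 ± 12 in KO (limma adjusted p = 0.154). Vldlr, a lipoprotein receptor, was at 18.5 ± 2.0 and 12.7 ± 1.8 FPKM (0.16). Their scaled log2 fold changes were -0.27 ± 0.14 (SE; adjusted p by limma = 0.353) and -0.20 ± 0.16 (0.499).

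Transfer RNA synthetases, a large class of ATF4 targets, lay at the level of the median gene. All 20 cytosolic members were lower as deposited (median log2 fold change -0.32), beside 87.6% of tested genes. Scaled, 10 were lower and 10 higher (median 0.01), beside 50.1% of tested genes lower. The deposited median was -0.12 without WT library 1, and the scaled median turned to -0.04 without WT library 2 and to -0.08 without KO library 3. By limma 0 were called. At an unadjusted p under 0.05, 4 were lower as deposited and 2 scaled, beside 24.8% and 8.72% of tested genes. Mars, the methionyl enzyme, was at 11.6 ± 2.3 FPKM in WT and 7.18 ± 1.92 in KO (SD, n = 3) and Vars, the valyl enzyme, at 5.90 ± 1.77 and 3.44 ± 0.71 FPKM. Their scaled log2 fold changes were -0.36 and -0.38, against -0.10 for Lars and -0.07 for Iars, which charge leucine and isoleucine.

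Enzymes downstream of Phgdh and Psat1 in serine, glycine and folate metabolism were lower for 10 of 12 tested as deposited and for 8 scaled. Over all tested genes 87.6% and 50.1% were lower. The enzymes had medians of -0.34 and -0.05, with 0 called by limma. These medians were -0.22 and -0.01 without WT library 1. At an unadjusted p under 0.05, 2 were lower and 0 higher as deposited, beside 24.8% and 1.01% of tested genes. Scaled, 1 was lower (Mtr) and 1 higher (Dld), beside 8.72% and 8.89%. Dld was named after its values were seen. Mtr, the methionine synthase that joins the folate and methionine cycles, had the smallest p of the list. It was at 9.55, 13.4 and 12.6 FPKM in WT and at 5.80, 5.63 and 5.18 FPKM in KO. WT library 1, the highest for most genes, was here the lowest of its group. No KO library reached it as deposited, and 31.7% of tested genes were apart in that direction. The log2 fold change was -1.02 ± 0.17 (SE; adjusted p by limma = 0.144) and -0.71 ± 0.21 scaled (0.244). Psph, which completes serine synthesis after Psat1, was at 3.35 ± 0.26 FPKM in WT and 2.35 ± 0.42 in KO (SD, n = 3; scaled log2 fold change -0.16). Shmt1 and Mthfd1, cytosolic enzymes of the folate cycle, had scaled log2 fold changes of -0.02 and 0.01.

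Upstream of ATF4, the 19 eIF2alpha kinases, phosphatase regulators and eIF2 and eIF2B subunits had a median log2 fold change of -0.33, and of -0.0040 scaled. On that scale 10 were lower and 9 higher, beside 50.1% of tested genes lower, with 0 called by limma. The deposited median was -0.19 without WT library 1, and the scaled one took either sign, from -0.05 without WT library 2 to 0.03 without KO library 2. At an unadjusted p under 0.05, 7 were lower and 1 higher as deposited, beside 24.8% and 1.01% of tested genes. Scaled, 1 was lower and 3 higher, beside 8.72% and 8.89%. The 3 were Eif2ak2, Eif2s2 and Nck1, named after their values were seen. Eif2ak2, the kinase PKR that senses double-stranded RNA, was at 3.33, 3.68 and 2.94 FPKM in WT and at 4.25, 4.17 and 6.60 FPKM in KO. Every KO library was above every WT library as deposited, beside 1.25% of tested genes, a share that was 12.7% after scaling. The log2 fold change of Eif2ak2 was 0.51 ± 0.20 (SE; adjusted p by limma = 0.174), and 0.80 ± 0.23 scaled (0.244). Eif2s2, a subunit of eIF2, had 0.27 ± 0.18 and 0.60 ± 0.18 scaled, and Nck1, an adaptor that opposes eIF2alpha phosphorylation, had 0.01 ± 0.17 and 0.34 ± 0.11. Eif2ak4, the kinase GCN2 that senses amino acid shortage, was at 2.2, 2.0 and 2.03 FPKM in WT and at 1.53, 1.37 and 1.13 FPKM in KO. The groups were apart as deposited, beside 31.7% of tested genes with KO lower. The log2 fold change of Eif2ak4 was -0.49 ± 0.15 (SE; adjusted p by limma = 0.16) and -0.24 ± 0.11 scaled (0.32). Gcn1l1, the activator of that kinase, had -0.69 ± 0.22 as deposited and -0.38 ± 0.13 scaled, and -0.07 with the GC and length correction. Eif2ak3, the kinase PERK of the endoplasmic reticulum, had -0.39 ± 0.14 and -0.11 ± 0.12, and Oma1, a mitochondrial protease that relays stress to eIF2alpha, had -0.55 ± 0.20 and -0.32 ± 0.17.

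The other arms of the unfolded protein response were near the median gene. Of 27 tested genes of the IRE1, XBP1 and ATF6 arms, 27 were lower as deposited (median -0.27), beside 87.6% of all tested genes. Scaled, 11 were lower and 16 higher (median 0.05), beside 50.1% lower. Here the deposited median was -0.15 without WT library 1, and without WT library 2 the scaled one was -0.0041. Again 0 were called by limma. At an unadjusted p under 0.05, 6 were lower as deposited and 3 scaled, beside 24.8% and 8.72% of all tested genes. Ern1, which encodes the sensor IRE1, was at 4.93, 2.98 and 2.94 FPKM in WT and at 1.73, 1.74 and 1.54 FPKM in KO. No KO library reached a WT library as deposited, beside 31.7% of all tested genes. The log2 fold change of Ern1 was -0.89 ± 0.20 (SE; adjusted p by limma = 0.151) and -0.61 ± 0.13 scaled (0.235). Its target Xbp1 had -0.65 ± 0.21 and -0.32 ± 0.19, the protein disulfide isomerase gene Pdia4 -0.61 ± 0.18 and -0.30 ± 0.11, and Sel1l, of the degradation machinery, -0.51 ± 0.17 and -0.20 ± 0.09. Of 16 mitochondrial chaperones and proteases, 15 were lower as deposited and 5 scaled, beside the same 87.6% and 50.1%, with medians of -0.28 and 0.05. By limma 0 were called. At an unadjusted p under 0.05, 2 were lower as deposited and 0 in either direction scaled, beside the same 24.8% and 8.72% lower. Trap1, Lonp1 and Clpx, with Oma1 the members with the smallest p, had scaled log2 fold changes of -0.09, -0.12 and 0.02.

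Of 14 receptors and upstream regulators of FGF21 and GDF15, 10 were tested. Fgfr4, Kl, Gfral and Ret were not, so the tested genes include no receptor of GDF15. All 10 were lower as deposited (median -0.52), beside 87.6% of all tested genes. Scaled, 7 were lower and 3 higher (median -0.22), beside 50.1% lower, and 0 were called by limma on either scale. At an unadjusted p under 0.05, 5 were lower as deposited and 4 scaled, beside 24.8% and 8.72% of all tested genes. Fgfr1, the signalling receptor of FGF21, was at 17.5, 13.0 and 11.4 FPKM in WT and at 8.44, 6.57 and 6.97 FPKM in KO. The groups were apart as deposited, beside 31.7% of all tested genes with KO lower. The log2 fold change of Fgfr1 was -0.87 ± 0.19 (SE; adjusted p by limma = 0.151), -0.56 ± 0.11 scaled (0.224) and -0.35 with the GC and length correction. Its co-receptor gene Klb, named after its values were seen, was at 8.0 ± 3.97 FPKM (SD, n = 3) in WT and 7.76 ± 3.52 in KO. The log2 fold change of Klb was -0.03 ± 0.40 (SE) as deposited and 0.28 ± 0.32 scaled. Ppara, which drives Fgf21 transcription in fasting liver, had -0.91 ± 0.28 and -0.58 ± 0.20 scaled. Mlxipl, the carbohydrate-responsive factor ChREBP, had -0.82 ± 0.19 and -0.50 ± 0.12, and Pparg had -0.65 ± 0.17 and -0.31 ± 0.11.

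**Figure D4:**
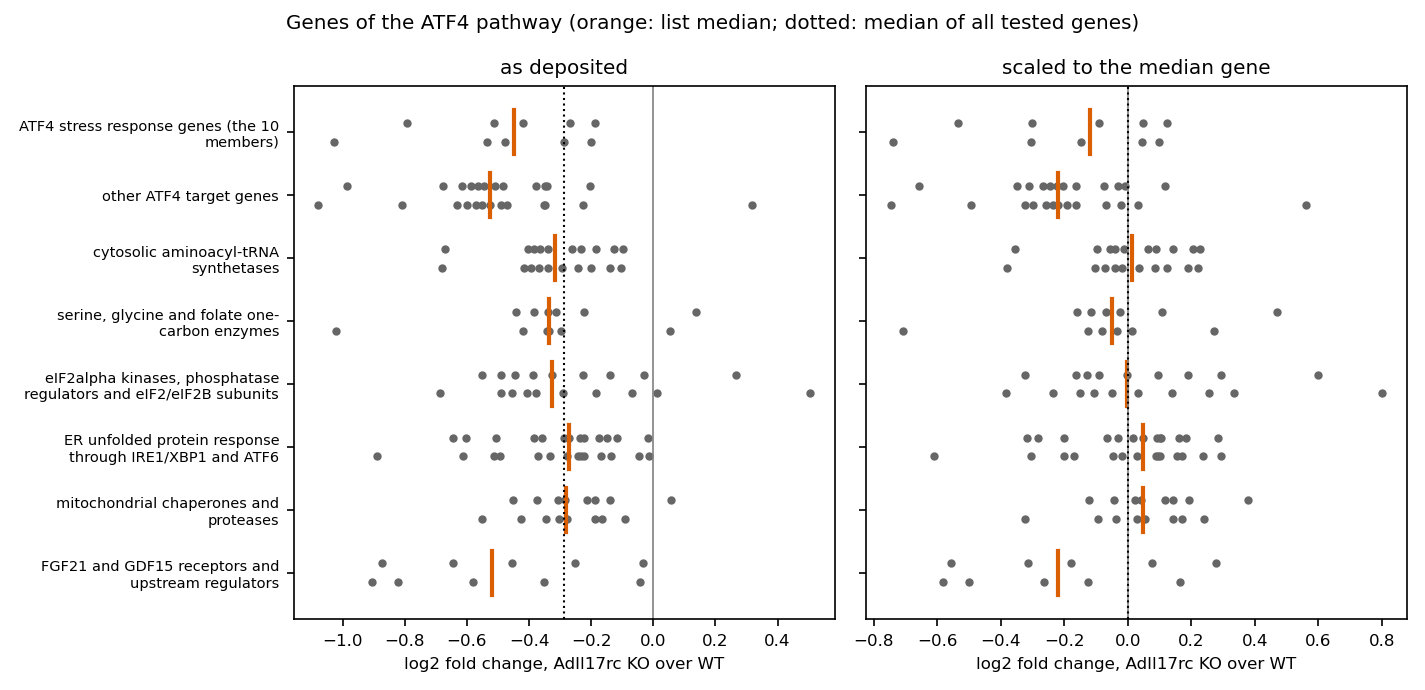
Log2 fold change (AdIl17rc KO over WT, horizontal axis) of each tested gene (grey points) for the 10 members and 7 lists of the pathway, as deposited (left) and scaled (right), with the list median in orange and the median of all tested genes dotted. After scaling the medians of the tRNA synthetases (0.01), the eIF2alpha kinases (-0.0040) and the chaperone lists (0.05 and 0.05) lie near the dotted line, and those of other ATF4 targets and of FGF21 and GDF15 receptors and regulators lie at -0.22 each.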

How the data were processed

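The authors deposited 1 table of FPKM values, 1 column per library. STAR 2.5.1b, Cufflinks 2.2.1, DESeq2 1.10.1 and build mm9 are named in the submitters' processing notes, and the annotation, strand setting and treatment of reads with several matches were not given in the sources used. Of 24043 rows, 27 had symbols turned into dates and were left out. FPKM keeps no library totals, so no count model was used. Values were tested as log2(FPKM + 0.5) for genes with a mean of at least 0.5 FPKM, with limma 3.58.1 in R 4.3.3 (genotype term, empirical Bayes with a trend, two-sided), Benjamini-Hochberg adjustment over all tested genes and a threshold of 0.05. Any p for members or lists comes from that fit. Median-of-ratios factors used genes above 0 in every library. GC content and transcript length came from GENCODE on GRCm38 (99.4% of tested genes) and were fitted per library by natural splines with 4 degrees of freedom each. The labels give no pairing of same-numbered libraries of the 2 groups. Named genes were the 10 members, Il17rc, up to 4 genes per list with the smallest p, and the 5 genes most like Atf4 at a mean of at least 1 FPKM (1 of them is not reported here), without predicted genes, pseudogenes and small RNA. Members and lists were chosen with earlier results of these data known, so their directions are no independent support. Summaries used Python 3.11.15 and scipy 1.17.1.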

Additional observations from a re-analysis of the deposited data

How the results depend on the processing

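By limma over all genes, 0 members were called as reported, and 0 in 25 of the 27 alternatives. The exceptions were rescaling to a common FPKM sum, with 1 member (Gdf15), 6 genes of the pathway lists and 263 of all genes called, and sample quality weights, with 8, 90 and 6382. Those weights were 4.94 for WT library 3 and 6.82 for KO library 2, and between 0.192 and 0.859 for the others. Of all genes, 2 were called as reported, 1 with no filter, 1 with the replicate block (alone, with scaling, and with scaling and GC and length correction) and 14 with robust empirical Bayes. Leaving out 1 library at a time called 3 to 77 genes as deposited, the most without KO library 3. With scaling it called 4, 4 and 7 without WT libraries 1, 2 and 3, and 1 and 36 without KO libraries 2 and 3.

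Of 269 member values, 226 were below 0, and those of Trib3, Gdf15 and Fgf21 were below 0 in all 27 alternatives. All are refits of the same 6 libraries or a part of them. Of all tested genes, 79.1% to 89.2% were below 0 in the settings without scaling. With scaling or quantile normalization 48.8% to 51.1% were. Log2 fold changes turned positive with scaling, the same with the replicate block added, for Atf4 (0.0457), Ddit3 (0.0477), Psat1 (0.10) and Phgdh (0.12). With GC and length correction too, again the same with the replicate block, they were positive for Atf4 (0.0709), Psat1 (0.0425) and Phgdh (0.16), and with quantile normalization for Ddit3 (0.0394), Psat1 (0.12) and Phgdh (0.13). Scaled and without WT library 1 they were 0.14 for Atf4, 0.0606 for Atf5, 0.0572 for Ddit3, 0.22 for Psat1 and 0.0688 for Phgdh. Without WT library 2 they were 0.0781 for Atf4 and 0.12 for Phgdh, and without WT library 3 0.11 for Ddit3, 0.18 for Psat1 and 0.19 for Phgdh. Without KO library 1 they were 0.0254 for Atf4, 0.0160 for Ddit3 and 0.33 for Psat1. Without KO library 2 they were 0.15 for Atf4, 0.11 for Ddit3, 0.14 for Psat1 and 0.24 for Phgdh, and without KO library 3 0.0127 for Ddit3 and 0.19 for Phgdh. As deposited, leaving out 1 library gave -0.46 to 0.0295 for Psat1. In a setting chosen after seeing the data, scaled without KO libraries 1 and 2, Asns was at 0.19, Atf4 0.22, Atf5 0.14, Chac1 0.0645, Ddit3 0.12 and Psat1 0.65, with 8 of all genes called, where the spread comes from WT alone and the lone KO library is assumed to vary like them. The causes were not tested. Chac1 left the test at a minimum mean of 1 FPKM.

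Same-numbered libraries correlated at 0.104, -0.121 and -0.0809 in their deviations from the group means. Not every library correlated best with its own number. A correlation over genes leaves out any shift common to all genes of a library, so it cannot show whether the numbers pair them. With the replicate block 41.4% of tested genes were lower at an unadjusted limma p under 0.05 as deposited, beside 24.8% without it. Scaled, the shares were 8.94% and 8.72%. With the replicate block the smallest adjusted p among the members (limma) was 0.0663, for Gdf15. Medians of the pathway lists moved in 83 of 189 values, 81 of them under scaling or quantile normalization. FPKM carries no counting error, so intervals for the low genes could not be given, and with 3 libraries a group an exact permutation test cannot go below p = 0.1.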
